A study of Mus musculus with 8 samples.

Results

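Hi-ChIP loops were examined at 6 genes that encode transcription factors of the pancreatic progenitor and the pancreatic duct: Sox4, Sox9, Pdx1, Prox1, Onecut1 and Onecut2. A loop was taken for a gene when 1 of its anchors came within 2 kb of an annotated start of that gene, which is called a promoter loop here, or when both anchors lay within 500 kb of such a start, which is called a neighborhood loop. These rules took 947 of the 249200 distinct loops in the 4 deposited lists, or 0.38%. Sox9 had 322 distinct loops, Pdx1 266, Onecut2 137, Sox4 128, Prox1 63 and Onecut1 31. The rule used positions and no value of the loops.

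Hi-ChIP couples proximity ligation of chromatin to immunoprecipitation, so it reads contacts between distant DNA fragments where the precipitated protein is bound. FOXA1, a forkhead factor, and HNF4G, an orphan nuclear receptor, were each precipitated from a mouse KPC primary tumor line and from the matched line of a liver metastasis (liver mets), which gave 4 groups of 2 replicates and 8 samples. All 4 groups were labeled WT in genotype and Untreated, and all cells were grown in DMEM with FBS. KPC is a mouse model of pancreatic cancer in which a Cre recombinase acts in pancreatic epithelium. The Cre driver of these lines was not given in the sources used here. KPC mice commonly carry a Cre transgene with Pdx1 regulatory sequence, and reads from such a transgene could not be told apart from reads of the endogenous Pdx1 locus. Each context was 1 line, so that the difference between liver mets and tumor cannot be told apart from a difference between these lines.

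Each group had 1 loop list that covered both replicates. No spread between replicates could be computed and no test between groups was run. Intervals are 95% intervals that cover counting error only and treat loops as independent, and read depth is unknown. Loops share anchors, and many are in more than 1 list. An interval that leaves out 1 is therefore a description and not a test. In liver mets the lists had 125623 (FOXA1) and 78098 (HNF4G) loops, and in tumor 104136 and 76323. Sets of 4 values are given in 1 order throughout, FOXA1 first and HNF4G second and, within each factor, liver mets before tumor. The 6 genes took 578, 422, 337 and 356 loops, or 0.46%, 0.405%, 0.432% and 0.466% of the lists.

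In the embryo, Pdx1 marks the pancreatic bud and is needed for the organ to grow, and in the adult it is kept in the beta cell. Sox9 maintains the progenitor pool and is later confined to ductal and centroacinar cells. Onecut1, also called HNF6, acts upstream of Pdx1 and is kept in duct cells, and Onecut2 is its close relative. Prox1 shapes the balance of duct, endocrine and acinar cells, and Sox4 is a SoxC factor of progenitors and of endocrine differentiation. In pancreatic ductal cancer, acinar cells that turn duct-like gain SOX9.

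The anchors were common to the 4 lists, so the DNA behind the loops of these genes can be shown. The windows that follow hold letters typical of the motifs of the 2 precipitated factors, in the promoter anchors or in the distal anchors on which the results turn. Letters searched on both strands were TGTTTAC and TATTTAC for FOXA factors and CAAAGNNCA for HNF4 factors, and the match is in capitals with up to 40 bases on each side. Coordinates are mm10, and bases were read from the RefSeq GRCm38.p6 assembly, 5′ to 3′ on the strand named.
Sox4 distal anchor, FOXA letters, chr13:28739331-28739417, minus strand: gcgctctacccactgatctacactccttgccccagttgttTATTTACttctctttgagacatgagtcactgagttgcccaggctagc
Sox4 distal anchor, HNF4 letters, chr13:28739980-28740068, plus strand: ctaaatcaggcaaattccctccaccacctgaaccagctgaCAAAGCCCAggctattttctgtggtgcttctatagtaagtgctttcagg
Sox9 promoter anchor, FOXA letters, chr11:112780942-112781028, minus strand: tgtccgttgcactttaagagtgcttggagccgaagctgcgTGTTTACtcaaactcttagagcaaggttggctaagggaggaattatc
Sox9 distal anchor, HNF4 letters, chr11:113000503-113000591, minus strand: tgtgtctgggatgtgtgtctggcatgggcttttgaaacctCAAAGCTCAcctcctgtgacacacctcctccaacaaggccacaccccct
Pdx1 promoter anchor, FOXA letters, chr5:147269582-147269668, plus strand: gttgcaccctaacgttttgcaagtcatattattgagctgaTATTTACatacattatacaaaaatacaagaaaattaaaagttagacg
Pdx1 promoter anchor, HNF4 letters, chr5:147268009-147268097, plus strand: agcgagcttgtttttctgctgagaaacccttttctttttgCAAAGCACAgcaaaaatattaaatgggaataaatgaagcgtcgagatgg
Pdx1 upstream anchor, FOXA letters, chr5:147262289-147262375, plus strand: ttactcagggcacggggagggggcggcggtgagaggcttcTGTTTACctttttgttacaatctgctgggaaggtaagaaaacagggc
Onecut1 distal anchor, FOXA letters, chr9:74124543-74124629, plus strand: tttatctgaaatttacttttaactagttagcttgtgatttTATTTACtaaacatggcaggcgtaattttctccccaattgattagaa

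The Sox9 window lies in the promoter anchor at -1.24 kb from the start, and the Pdx1 FOXA window at -0.334 kb. Positions are given from the annotated start in the direction of transcription, so negative positions are upstream. A match of letters is a description of the sequence and not a binding site. Over all 30542 anchors, 12.6% held the FOXA letters and 7.55% the HNF4 letters in their middle 300 bases. Of the 137 distal anchors joined to a promoter of the 6 genes, 28 held the FOXA letters there (20.4%, 95% interval 14.5 to 28.0) and 11 the HNF4 letters (8.03%, 4.54 to 13.8). Of the 117 of these distal anchors with no coding promoter, 20.5% held the FOXA letters (14.2 to 28.7), an interval that includes the 15.8% of all anchors with no coding promoter. The Onecut2 distal anchors held the FOXA letters in 10 of 32 and those of Sox9 in 4 of 34. Promoter windows of 300 bases from RefSeq (GRCm38.p6) matched Sox4, Pdx1, Onecut1 and, with 2 entries, Prox1, and none of them held either set of letters, against 6.54% (FOXA) and 6.36% (HNF4) of 32851 such windows.

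5 of the 6 genes had a loop anchor at a start, and Prox1 had none. The plot of loop counts gives the values for each gene and list. Promoter loops of Sox4 numbered 20, 17, 6 and 10. Sox4 was highest in the FOXA1 lists and lowest in HNF4G liver mets. Those of Sox9 numbered 22, 18, 13 and 16, those of Pdx1 29, 16, 13 and 16, and those of Onecut2 25, 17, 17 and 16. In these 3 genes the FOXA1 liver mets list, the longest of the 4, stood first. The other lists lay close together at Pdx1 and Onecut2, and between 13 and 18 at Sox9. Relative to list size, FOXA1 over HNF4G in liver mets was 1.05 at Sox9, 1.39 at Pdx1 and 0.914 at Onecut2, with intervals that include 1. Onecut1 had 4, 1, 6 and 5 promoter loops, from 2 promoter anchors, and FOXA1 tumor held fewest. Over all 10786 protein-coding genes with a promoter anchor the median was 7, 6, 5 and 5 loops. Sox4, Sox9, Pdx1 and Onecut2 thus held more than the median gene in all 4 lists, Sox4 by the least in HNF4G liver mets with 6 against 5.

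**Figure D1:**
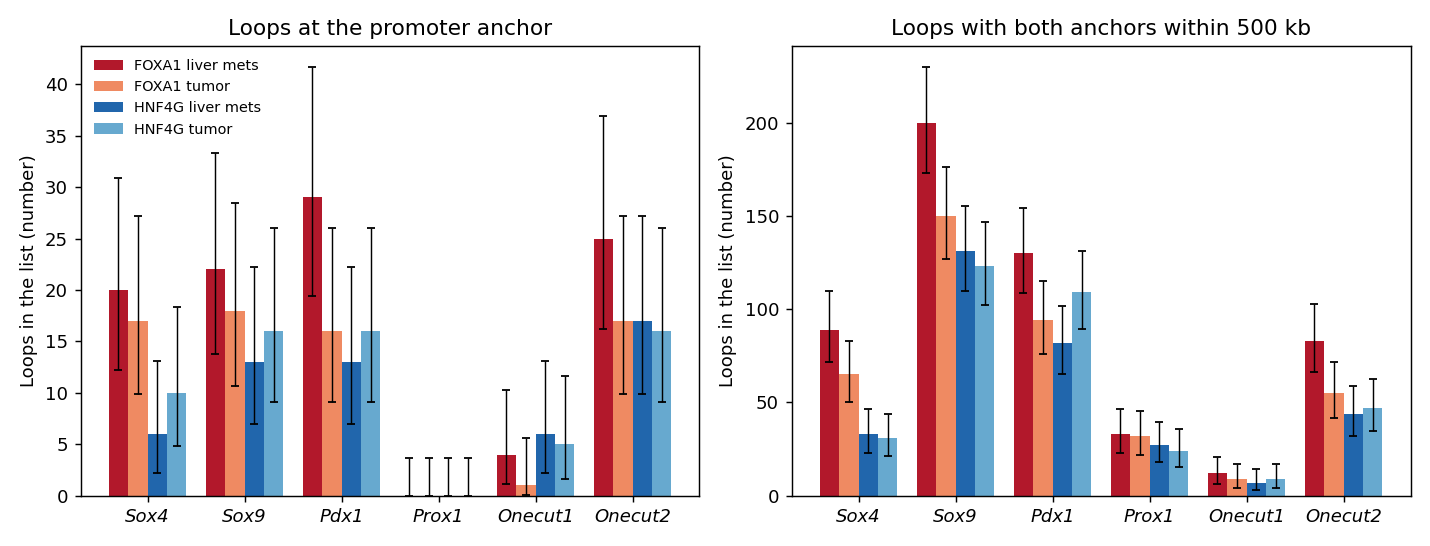
Number of loops in each deposited list for the 6 genes, at the promoter anchor (left) and with both anchors within 500 kb of a start (right). Bars are counts from 1 list per group and error bars are exact Poisson 95% intervals of counting error. FOXA1 liver mets is the highest bar at Sox4, Sox9, Pdx1 and Onecut2, Prox1 has 0 promoter loops, and Onecut1 has 1 to 6.

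In liver mets over tumor, the question the design puts to each factor, the 6 genes together had 100 FOXA1 promoter loops against 69, a ratio of 1.45 (1.06 to 2.00), and 55 HNF4G promoter loops against 63, a ratio of 0.873 (0.597 to 1.27). The lists themselves differed by a ratio of 1.21 for FOXA1 and 1.02 for HNF4G. Relative to list size the FOXA1 ratio was 1.20 (0.875 to 1.66), an interval that includes 1. By gene, the FOXA1 ratio was 1.81 (0.952 to 3.57) at Pdx1, 1.47 (0.763 to 2.90) at Onecut2, 1.22 (0.626 to 2.42) at Sox9 and 1.18 (0.585 to 2.39) at Sox4, which became 0.975 relative to list size. With loops of a value of 2 or more the Pdx1 ratio was 4.0 (0.798 to 38.7), from 8 loops against 2. None of the intervals by gene leaves out 1, so that a difference at a single promoter was not detectable at these counts. At Onecut1 the 4 loops against 1 gave a ratio of 4.0 with an interval of 0.396 to 197.

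These ratios were set beside those of all coding genes. With 1 added to each count and a fold of 1.5, FOXA1 was higher in liver mets at 2 of the 5 genes with a promoter anchor, Pdx1 (1.76) and Onecut1 (2.5), and lower at none, where 27.2% of the 10786 genes were higher and 12.6% lower. HNF4G was higher at none of the 5 and lower at Sox4 alone (0.636), where 21.8% of all genes were higher and 22.1% lower. The median ratio of the 5 genes was 1.44 for FOXA1, against 1.14 over all genes, and 0.824 for HNF4G, against 1.00. Within liver mets, FOXA1 over HNF4G was higher at 3 of the 5 (Sox4, Pdx1 and Sox9), where 48.7% of all genes were higher and 7.37% lower. Within tumor FOXA1 over HNF4G was higher at Sox4 (1.64) and lower at Onecut1 (0.333), where 36.7% of all genes were higher and 12.1% lower. These 4 comparisons share lists and are not independent.

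**Figure D2:**
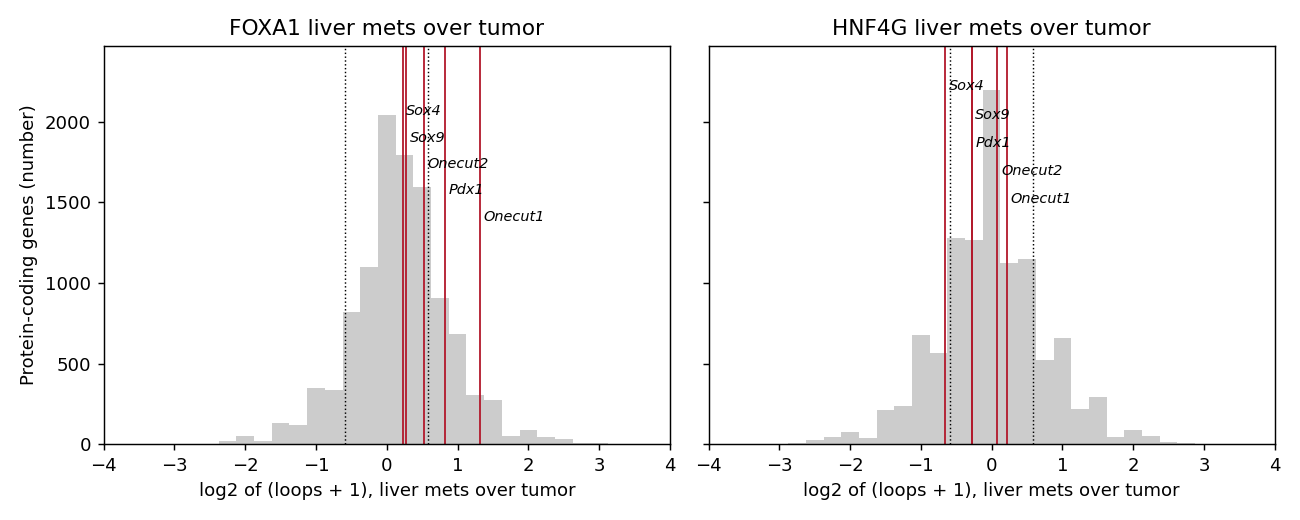
Ratio of promoter loops in liver mets over tumor, as log2 of loops plus 1, for the 10786 protein-coding genes with a promoter anchor (gray bars, number of genes) and for 5 of the 6 genes (red lines), for FOXA1 (left) and HNF4G (right). Dotted lines mark a fold of 1.5 in each direction. For FOXA1, Pdx1 and Onecut1 lie beyond the dotted line on the higher side, and for HNF4G, Sox4 lies beyond it on the lower side, while Sox9 and Pdx1 share 1 position.

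Neighborhood loops were the larger class. Sox9 had 200, 150, 131 and 123, Pdx1 130, 94, 82 and 109, Sox4 89, 65, 33 and 31, Onecut2 83, 55, 44 and 47, Prox1 33, 32, 27 and 24, and Onecut1 12, 9, 7 and 9. For FOXA1 each of the 6 genes had more loops in liver mets than in tumor, and the sum was 547 against 405, a ratio of 1.35 (1.19 to 1.54). Relative to list size this was 1.12 (0.983 to 1.28). For HNF4G the sum was 324 against 343, a ratio of 0.945 (0.809 to 1.10). Pdx1 had the lowest HNF4G ratio, 82 loops against 109 or 0.752 (0.558 to 1.01), and 0.735 (0.545 to 0.988) relative to list size. Sox4 had 2.70 (1.79 to 4.15) times as many FOXA1 as HNF4G loops in liver mets and 2.10 (1.35 to 3.33) times as many in tumor, where the lists differed by ratios of 1.61 and 1.36. Relative to list size these were 1.68 (1.11 to 2.58) and 1.54 (0.987 to 2.44), the latter with an interval that includes 1. Pdx1 went the other way in tumor, with 94 FOXA1 against 109 HNF4G loops, a ratio of 0.862 (0.647 to 1.15) and of 0.632 (0.474 to 0.841) relative to list size.

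Loops become rarer with distance, so the promoter anchors were also read against the number of loops that their spans would give. For every pair of a promoter anchor with another anchor up to 500 kb away, the share of all pairs of that span listed anywhere in the genome was summed to give an expected number. At Onecut2 the listed number was 3.93, 3.81, 4.69 and 4.10 times the expected number, above more than 99.5% of 10752 coding genes in each list. At Sox9 it was 2.88, 2.80, 3.54 and 4.50 times, above 98.8% to 99.7% of genes. At Sox4 it was 3.02, 3.78, 1.05 and 3.30 times, so that HNF4G liver mets, with 3 of 19 pairs listed, stood above 57.0% of genes while the other lists stood above 98.7% to 99.8%. At Pdx1 it was 2.52, 1.52, 1.96 and 2.25 times, above 98.4%, 83.1%, 91.1% and 93.0% of genes. There it had intervals that include 1 in FOXA1 tumor and HNF4G liver mets. At Onecut1 it was 0.242, 0, 0.750 and 1.17 times, with intervals that all include 1. The median over coding genes was 0.879 to 0.958, and genes that share an anchor share this value. Pairs with both anchors within 500 kb of the start that did not touch the promoter anchor were read likewise. They were listed 1.95, 1.51, 1.14 and 0.881 times the expected number at Sox4. The values were 1.30, 1.10, 1.19 and 1.16 at Sox9 and 1.49, 1.11, 1.05 and 1.32 at Onecut2. They were 0.985, 0.878, 0.979 and 1.39 at Pdx1 and 1.32, 1.26, 0.908 and 1.14 at Onecut1.

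**Figure D3:**
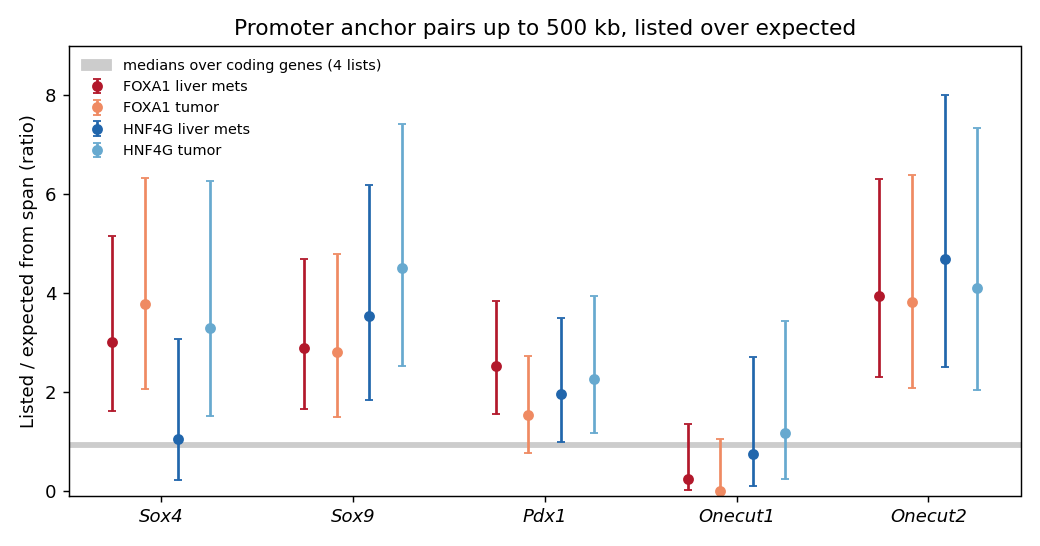
Promoter anchor pairs up to 500 kb that were listed, divided by the number expected from span, for 5 genes and 4 lists. Points are the ratios, error bars are exact 95% intervals of the listed count, and the gray band spans the medians over coding genes in the 4 lists. The intervals of Onecut2 and Sox9 lie above the band in all 4 lists, and those of Sox4 in all but HNF4G liver mets. The Pdx1 interval includes the band in FOXA1 tumor, and includes 1 there and in HNF4G liver mets. The intervals of Onecut1 include the band.

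Anchor width differed between the genes and moved with the number of loops. The promoter anchor of Onecut2 was 14296 bp wide and that of Sox9 8174 bp, wider than 99.95% and 99.2% of all anchors, whose median was 2335 bp. Those of Sox4 and Pdx1 were 4191 and 4107 bp wide, and those of Onecut1 3678 and 3053 bp. Across the 30542 anchors, width and the number of loops summed over the 4 lists had a Spearman rho of 0.337, given as a description because anchors share libraries. The part of width in the ratios above was not tested.

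Sox4 lies alone in its neighborhood, with no other coding start within 500 kb. The next coding start is Cdkal1 at 521 kb on the upstream side and Gm11361 at 696 kb on the downstream side. Of the 19 other anchors within 500 kb, 16 lay downstream and 3 upstream. The promoter anchor of Sox4 (chr13:28950435-28954625, 4191 bp) was joined to 25 distal anchors, none at a coding promoter, and 17 of them lay downstream. Most of the downstream ones lay in introns of the noncoding gene 2610307P16Rik. The anchor chr13:28737276-28741279, at 214 kb in an intron of that gene, was the single distal anchor joined to the Sox4 promoter in all 4 lists. Its deposited value was 20, 9.34, 1.81 and 1.77. This value had no name in the files and is read here as the −log10 of an adjusted p that ends at 20, a reading that rests on the values alone, and the same value need not carry the same evidence in different lists. The 2 FOXA1 lists thus gave this Sox4 loop far higher values than the 2 HNF4G lists. It holds the Sox4 windows printed above, with 3 FOXA and 1 HNF4 match in its 4004 bp, whereas the Sox4 promoter anchor held no match of either kind. Counting neighborhood loops only, the anchor at 214 kb was also the busiest, with 42 loop ends summed over the lists against 39 at the promoter. With loops of any span the promoter had 53, a sum not given here for the distal anchors.

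Of the Sox4 promoter loops, FOXA1 had 14 in both lines, of 20 in liver mets and 17 in tumor, or 82.4% of those in tumor (95% interval by Wilson's method 59.0 to 93.8). HNF4G had 1 in both, of 6 and 10, or 16.7% of those in liver mets (3.01 to 56.4). Over all loops at a coding promoter these shares were 39.9% for FOXA1 and 34.2% for HNF4G, and the difference between the factors at Sox4 had no test. All 10 of the HNF4G tumor loops were in the FOXA1 tumor list as well, against 3 of 6 in liver mets. Over all loops at a coding promoter, the FOXA1 list held 37.9% of HNF4G loops in tumor and 43.4% in liver mets. The anchor at 196 kb (chr13:28757020-28759184) was joined to Sox4 in both FOXA1 lists, with values of 6.34 and 4.65, and in neither HNF4G list. The anchors at 424 kb (chr13:28528406-28530395) and 80.6 kb (chr13:28871089-28875120) were joined in both tumor lists and neither liver mets list. The values were 1.85 (FOXA1) and 1.94 (HNF4G) at 424 kb, and 0.862 and 0.171 at 80.6 kb. Beside the former, the anchor at 421 kb was joined in both tumor lists and in FOXA1 liver mets, there at 5.61. The farthest anchor, at -1004 kb in an intron of E2f3, a cell cycle factor, was in FOXA1 liver mets alone at 1.87, a value that many loops of that list share.

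Sox9 also lies alone, between Kcnj2, a potassium channel gene 1716 kb upstream, and Slc39a11, a zinc transporter gene 784 kb downstream. Of the 31 other anchors within 500 kb, 30 lay downstream and 1 upstream. Its promoter anchor (chr11:112780093-112788266) was joined to 34 distal anchors, 29 of them downstream. No neighborhood loop of Sox9 lay wholly on the upstream side in any list. The 5 distal anchors found in all 4 lists fell between 218 and 320 kb downstream. The anchor at 279 kb (chr11:113058773-113064300, in an intron of the noncoding gene 2610035D17Rik) had values of 20, 5.22, 11.1 and 10.7. The anchor at 218 kb (chr11:112998155-113002825, intergenic) had 11.5, 3.04, 5.37 and 5.08. Both stood highest in FOXA1 liver mets. The anchor at 320 kb had 3.23, 5.43, 1.93 and 1.89. The anchor at 250 kb had 7.12, 3.11, 1.86 and 1.81, and that at 238 kb had 4.73, 5.05, 1.85 and 1.77. The order of the lists thus differed between the 5 anchors, with FOXA1 tumor lowest at 279 and 218 kb and highest at 320 and 238 kb. Counting neighborhood loops only, the anchors at 279 and 218 kb were the 2 busiest at Sox9, with 81 and 71 loop ends over the lists against 56 at the promoter. With loops of any span the promoter had 69. The anchor at 279 kb held no FOXA or HNF4 letters, while the anchor at 218 kb held 3 HNF4 matches, of which 1 is printed above.

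Few Sox9 anchors split by line or factor with high values. The anchor at 312 kb (chr11:113092815-113096389) was joined in both tumor lists and neither liver mets list, with values of 5.37 in FOXA1 and 3.44 in HNF4G. The anchor at 427 kb, at the start of the noncoding gene 4732490B19Rik, was joined in both liver mets lists and neither tumor list, with 3.44 in FOXA1 and 3.74 in HNF4G. An anchor at 413 kb was joined in both HNF4G lists and neither FOXA1 list, with 3.74 in liver mets and 3.63 in tumor. The neighboring anchor at 308 kb (chr11:113088938-113091323) had the same split as that at 312 kb, with 1.79 in FOXA1 and 3.44 in HNF4G. Anchors near these, at 320, 399 and 417 kb, were joined in other sets of lists. Such a split thus concerns 1 or 2 anchors among several and not the whole stretch.

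Pdx1 sits in a gene-dense stretch, with 13 other coding genes whose starts lie within 500 kb. They include the ParaHox genes Gsx1 at 81.3 kb upstream and Cdx2, an intestinal homeobox factor, at 37.3 kb downstream. Of the 37 distal anchors joined to the Pdx1 promoter anchor (chr5:147266832-147270938), 10 were at coding promoters, against 1 of 34 at Sox9 and 0 of 25 at Sox4. They include the promoters of Gsx1, Usp12, Gtf3a, Slc46a3, Mtus2, Cdx2 and the shared promoter of Lnx2 and Polr1d. The 5 anchors joined in all 4 lists lay close by. The anchor at -7.24 kb (chr5:147260284-147265158), in an intron of the noncoding gene Plut that starts beside Pdx1, had values of 6.03, 3.74, 2.07 and 3.05 and was highest in FOXA1 liver mets. It held 3 FOXA and 2 HNF4 matches, of which 1 is printed above. The anchor at 30.6 kb, 4.57 kb from a Cdx2 start, had 2.44, 0.749, 1.31 and 1.99. Counting neighborhood loops only, it was the busiest, with 62 loop ends against 55 at the Pdx1 promoter. With loops of any span the Pdx1 promoter had 74. The anchor at 23.1 kb had 3.78, 0.312, 0.143 and 0.171, and that at 45.1 kb in Urad had 0.281, 1.35, 0.440 and 0.171. The anchor at the Cdx2 promoter had low values in all 4 lists, 0.251, 0.123, 0.146 and 0.508.

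**Figure D4:**
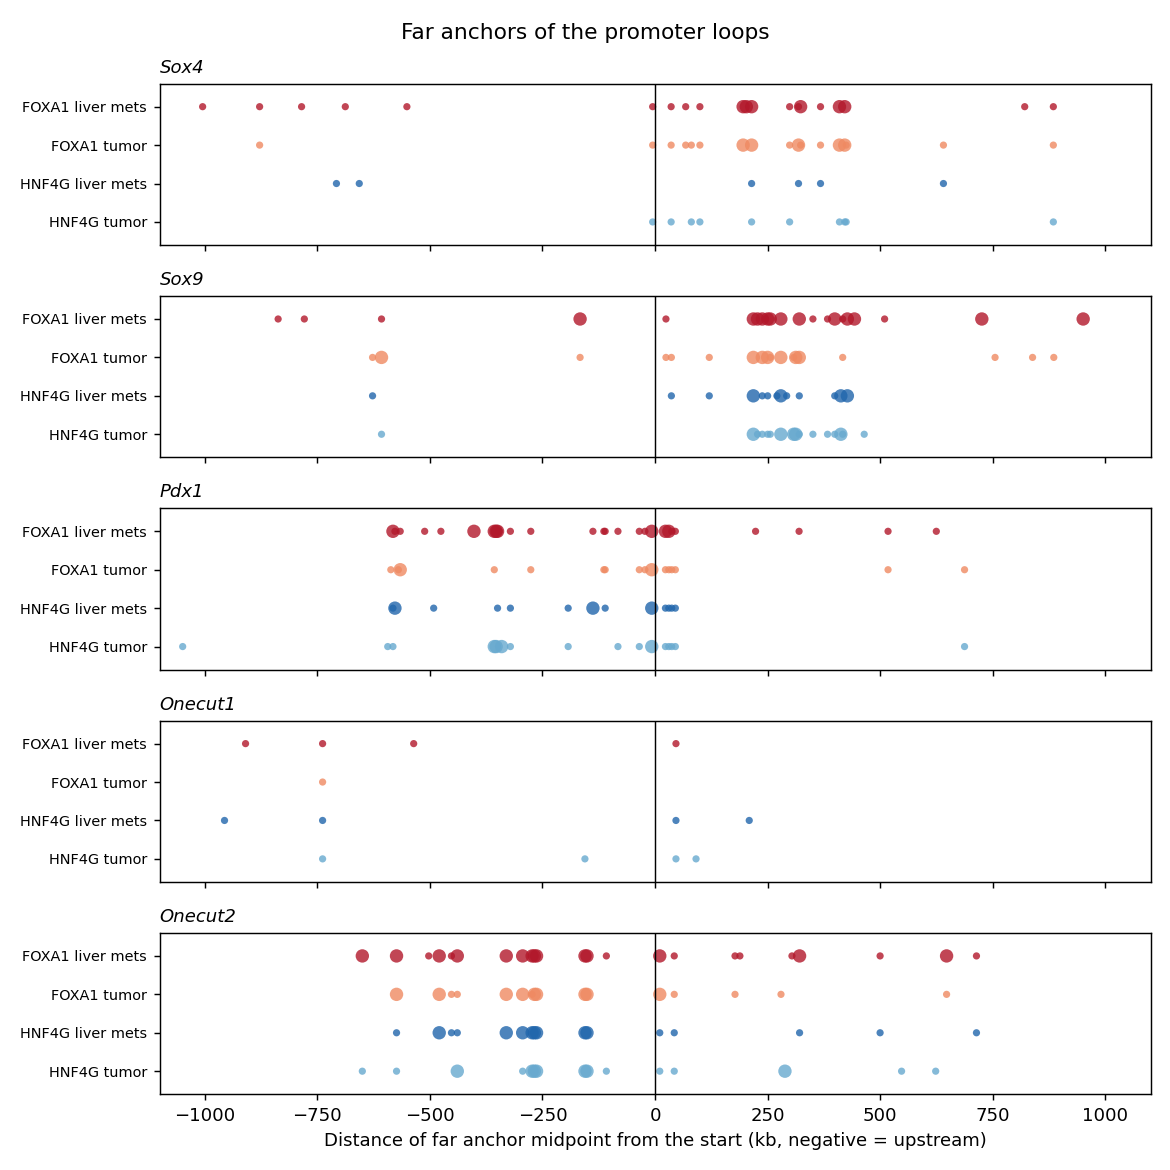
Distal anchors of the promoter loops by distance of the anchor midpoint from the annotated start, in kb along the direction of transcription, with 1 row per list for 5 genes. Large points have a deposited value of 2 or more, small points a lower one, and the few anchors beyond the ends of the axis are not drawn. Of the distal anchors, 17 of 25 at Sox4 and 29 of 34 at Sox9 lie downstream, whereas 27 of 37 at Pdx1 lie upstream. The anchors present within 500 kb, joined or not, lie to the same sides. They are downstream for 16 of 19 at Sox4 and 30 of 31 at Sox9, and upstream for 21 of 34 at Pdx1.

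Of the Pdx1 promoter loops, 13 were in both FOXA1 lists, of 29 in liver mets and 16 in tumor, and 8 were in both HNF4G lists, of 13 and 16. Pdx1 thus had 16 FOXA1 loops of liver mets that were not in tumor and 3 of tumor that were not in liver mets. Over all loops at a coding promoter, the FOXA1 lists shared 33.9% of liver mets and 39.9% of tumor. The HNF4G lists shared 34.2% and 33.3%. The shared part at Pdx1 lay above these for both factors, with no test of the difference. The anchor at -357 kb (chr5:146911070-146915174), between genes and 33.5 kb from a Gtf3a start, had 7.75 in FOXA1 liver mets, 1.82 in FOXA1 tumor and 5.93 in HNF4G tumor and was not listed in HNF4G liver mets. A nearby anchor at -350 kb had 5.26 in FOXA1 liver mets and 1.92 in HNF4G liver mets and was in neither tumor list. Another anchor lay between them, at -353 kb, and each of the 4 lists joined the Pdx1 promoter to 1 or more of the 3. The farthest anchor was the promoter of Zscan25 at -1989 kb, in FOXA1 liver mets alone at 1.87.

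Prox1 had no promoter loop in any list because no anchor lay within 2 kb of its 3 annotated starts. The nearest anchor, chr1:189959435-189961220, was 208 kb away. All 15 anchors in its neighborhood lay on the downstream side, in and around Ptpn14, a phosphatase gene, Smyd2, a lysine methyltransferase gene, and Cenpf, a kinetochore gene. The Prox1 neighborhood loops were therefore loops among these other genes. Their listed number was 0.790, 0.855, 0.875 and 0.848 times that expected from span, with intervals that include 1. The busiest anchor lay in an intron of Ptpn14, beside an inner start of that gene (chr1:189783722-189786612), with 8, 8, 6 and 8 loops.

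Onecut1 had the fewest loops of the 5 genes with a promoter anchor. Its 2 promoter anchors, chr9:74860251-74863928 and chr9:74864762-74867814, were joined to 9 distal anchors by 12 distinct loops, and 9 of these loops were in 1 list only. A single distal anchor, at -738 kb in an intron of Wdr72 (chr9:74121573-74126260), was joined in all 4 lists, through 1 or the other promoter anchor. Its values were 1.87, 1.91, 1.99 and 1.99, which lie at or near the tied values that many loops of each list share. The anchor at 46.5 kb was joined in FOXA1 liver mets, HNF4G liver mets and HNF4G tumor, with values of 0.287, 0.146 and 0.171. No Onecut1 promoter loop reached a value of 2 in any list.

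Onecut2 had the largest share of its distal anchors in all 4 lists. Its promoter anchor (chr18:64331265-64345560) was joined to 32 distal anchors, and 10 of these were found in all 4 lists, against 5 of 34 at Sox9, 5 of 37 at Pdx1 and 1 of 25 at Sox4. Of the 10, 8 lay upstream. The anchor at -155 kb (chr18:64182038-64187088), in an intron of the noncoding gene St8sia3os, had the end value of 20 in all 4 lists, the only such loop of the 6 genes. The anchors at -263 kb and -268 kb had 20 in both FOXA1 lists and in HNF4G tumor, and 10.8 and 5.60 in HNF4G liver mets. The anchor at -574 kb, in an intron of Wdr7, had 6.01 and 8.75 in the FOXA1 lists and 1.99 in both HNF4G lists, at or just below the value that many of their loops share. Of the 17 HNF4G liver mets promoter loops, 16 were also in FOXA1 liver mets, against 43.4% over all loops at a coding promoter. A loop to the promoter of Atp8b1, a phospholipid flippase gene, was in both liver mets lists and neither tumor list, with values of 3.12 and 1.92. The same held for an inner start of Nedd4l, a ubiquitin ligase gene, with 1.87 and 1.99, at or near tied values. Other anchors in both genes were joined in tumor. An anchor in an intron of Atp8b1, at 288 kb, had 5.68 in HNF4G tumor alone. An anchor in an intron of Nedd4l, at 647 kb, had 3.63 in FOXA1 liver mets and 1.91 in FOXA1 tumor. The split thus concerns single anchors and not the whole of either gene.

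Across the 5 genes, 137 distal anchors were joined to a promoter. Of these, 20 lay at a coding promoter (14.6%, 95% Wilson interval 9.65 to 21.5) and 98 lay more than 20 kb from any coding start. Over the whole series 11729 of 30542 anchors lay at a coding promoter. Sox4 and Sox9 have no other coding start within 500 kb, and the part of this layout in the share was not tested. The 22 anchors joined in all 4 lists had 1 coding promoter among them, that of Cdx2, and the 55 joined in 1 list had 11. A value of 2 or more was reached by 41, 23, 15 and 16 of the 100, 69, 55 and 63 promoter loops. Median span of the promoter loops was 337, 281, 317 and 292 kb. By gene, Onecut1 spanned farthest in the FOXA1 lists and in HNF4G liver mets, on few loops, and Pdx1 was shortest in FOXA1 tumor with 111 kb, where 7 of its 16 loops were under 100 kb.

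Of the 947 loops of the 6 genes, 488 (51.5%) were in 1 list, 251 in 2, 129 in 3 and 79 (8.34%) in all 4. Over the whole series 65.6% of distinct loops were in 1 list and 5.28% in all 4. The share in all 4 lists was 12.4% at Onecut2, 10.9% at Sox9, 6.39% at Pdx1, 6.35% at Prox1, 3.91% at Sox4 and 3.23% at Onecut1. Member loops of the FOXA1 lists were shared between lines for 247 loops, which were 42.7% of liver mets and 58.5% of tumor. Those of the HNF4G lists were shared for 142 loops, 42.1% of liver mets and 39.9% of tumor. Over all loops of the series, the FOXA1 lists shared 34.0% of liver mets and 41.1% of tumor, and the HNF4G lists 32.9% and 33.6%. The members' shares were thus above those of the series for both factors, with no test of the difference. Most member loops had both anchors within 500 kb of a start, a limit that loops of the series did not have. The part of span in these shares was not tested. At Sox4, 51 FOXA1 loops were shared, of 96 in liver mets and 68 in tumor, and 10 HNF4G loops were shared, of 36 and 32.

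**Figure D5:**
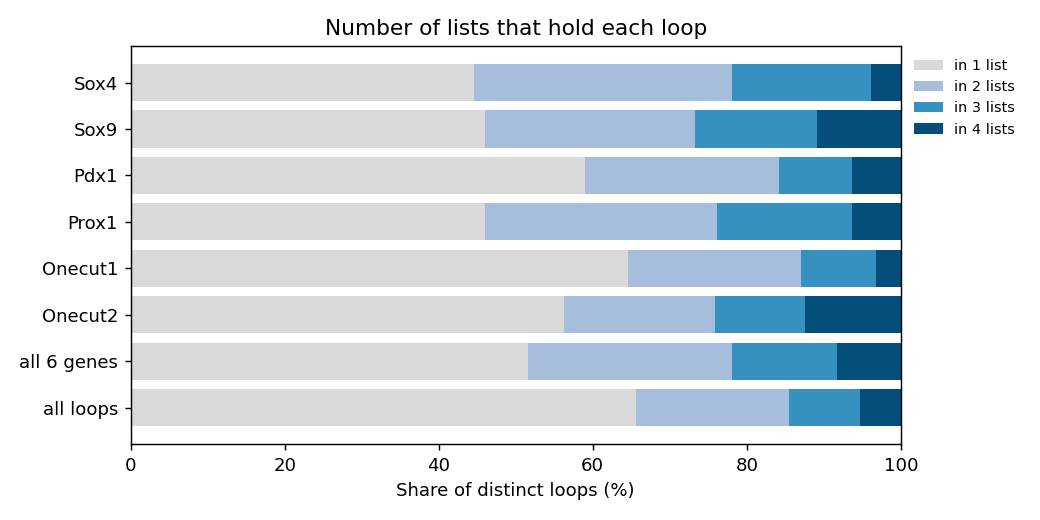
Share of distinct loops of each gene, of the 6 genes together and of all loops in the series that were in 1, 2, 3 or 4 of the lists. Bars sum to 100%. Onecut2 and Sox9 have the widest 4-list segments (12.4% and 10.9%), against 5.28% of all loops.

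Among 26 other factors of pancreas development, 16 had a promoter anchor, and Ptf1a, Nkx6-1, Mnx1, Nr5a2 and Neurog3 were among those that did not. FOXA1 was higher in liver mets at 6 of the 16 and lower at 2, and HNF4G was higher at 1 and lower at 5, beside the same 27.2%, 12.6%, 21.8% and 22.1% of all genes. Hhex, a homeobox factor of the foregut, had 37, 19, 11 and 17 promoter loops, Hes1, an effector of Notch signaling, 47, 43, 25 and 35, and Foxa2 18, 13, 11 and 9. Of 7 close relatives of the 6 genes, Onecut3 had the most promoter loops, with 33, 28, 23 and 28, and Sox17, Sox12 and Prox2 had at most 9 in any list. The coding gene whose 4 counts lay nearest by Euclidean distance of log2 of loops plus 1 was Sec24a for Sox4 (0.154), Hectd3 for Sox9 (0.0995), Wdtc1 for Pdx1 (0.129), Ppp1r3c for Onecut1 (0) and Klf13 for Onecut2 (0.126), over 4 lists in each case.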

How the data were processed

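FOXA1 and HNF4G Hi-ChIP was performed in 2 KPC lines, with 2 replicates per group. Per the labels and the study's methods, the authors aligned reads to mm10 with HiC-Pro 3.1.0, removed duplicates and assigned reads to DpnII fragments by default settings, and called loops with hichipper. The anchor source, the minimum of paired reads per loop and the joining of replicates were not given in the sources used here. Each deposited list gave 2 anchors, a score per loop without a name and a display number made from it; the authors deposited no counts, so depth is unknown. The score was used as listed.

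Loops were matched to all annotated starts of GENCODE M21 (GRCm38) with pandas 2.3.3 and scipy 1.17.1. Anchors of different lists were identical or did not overlap. Count ratios carry exact Clopper-Pearson intervals, counts exact Poisson intervals and shares Wilson intervals, all at 95%. Scripts were tested on simulated lists.

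Distal anchors were named by a fixed rule: up to 6 per gene in all 4 lists by highest lowest value (the best-listed where under 3 were), up to 3 for each split by line or factor, and the farthest. The Pdx1 anchor at -357 kb and the partner promoters counted in the text were named after their values were seen. The 6 genes and the gene lists were chosen with earlier results of these data known. Alternatives were other reaches, windows, spans, value minima and matching rules.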

Additional observations from a re-analysis of the deposited data

Results flagged for a closer look

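At some genes the ratio of loops in liver mets to tumor lay above 1 for FOXA1 and below 1 for HNF4G. Each group had 1 list, so no test of this opposition was run. The lists as a whole had ratios of 1.21 (FOXA1) and 1.02 (HNF4G). The genes below are named because they showed the opposition, and the share of all genes that showed it is not given here. For promoter loops, the ratios were 1.18 (FOXA1) and 0.6 (HNF4G) at Sox4, 1.22 and 0.813 at Sox9, and 1.81 and 0.813 at Pdx1. For neighborhood loops the ratios were 1.38 and 0.752 at Pdx1 and 1.51 and 0.936 at Onecut2. At Onecut1 they were 1.33 and 0.778, from 12 against 9 FOXA1 loops and 7 against 9 HNF4G loops. The opposition did not hold under each setting: relative to list size the FOXA1 ratio at the Sox4 promoter was 0.975, and within 1000 kb the HNF4G ratio was 1.18 at Onecut1 and 1.11 at Onecut2.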

How the results depend on the processing

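No paired analysis was possible because each group had 1 list that covered both replicates, and for the same reason no replicate could be left out. Of the 6 summary ratios and shares under their alternatives, 32 values moved by less than their interval, and 8 moved by more. The HNF4G neighborhood ratio rose from 0.945 to 1.025 at a value of 2 or more, and the other summary ratios stayed on their side of 1. The FOXA1 neighborhood ratio of liver mets to tumor was 1.12 relative to list size and 1.84 with loops of a value of 2 or more. The FOXA1 share of loops in both lines, as a percent of the smaller list, was 83.9 with anchors widened by 5 kb, 48.2 within 1000 kb, 68.1 within 250 kb and 52.5 at a value of 2 or more. The HNF4G share was 70.9 with widened anchors and 36.7 within 1000 kb. Among single genes 5 values moved and 118 did not. All 5 came from the minimum value of 2, as at Pdx1, where 8 FOXA1 promoter loops in liver mets stood against 2 in tumor (4.0, 0.798 to 38.7). Relative to list size the FOXA1 ratio fell below 1 at the Sox4 promoter (0.975) and in the Prox1 neighborhood (0.855). Unknown depth and 1 list per group limit each comparison to counts of listed loops, and the cause of these shifts was not tested.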
